A study of Mus musculus with 28 samples.

Results

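Strong distal regions of H3K27 acetylation (H3K27ac) in solvent-treated mouse embryonic stem cells (mESCs) were examined. The members were chosen by measured values: a region belonged to the set where its H3K27ac coverage in the EtOH group was 4 or more and where it overlapped none of 38087 windows, each 5 kb wide, around transcription start sites (TSS). This left 839 of 127646 regions, out of 1017 that reached the threshold, because 178 of those lay at a TSS window. The series profiled active chromatin marks by CUT&Tag, in which a transposase tethered to an antibody tags the DNA around a mark. All cells carried the FOXD3-iKO genotype, an inducible knockout of the forkhead factor FOXD3, were grown in L2i medium and had a labelled treatment time of 24 h. H3K27ac had 2 samples treated with the solvent EtOH and 2 treated with 4-hydroxytamoxifen (4HT), which induces the depletion. For H2BK120ac, 3 samples each carried the codes ED, ET, TD or TT, whose letters stay unexplained in the labels. Whether the line is 1 clone is not stated either.

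H3K27ac is laid down by the acetyltransferases p300 and CBP and marks active enhancers and promoters. Enhancers are distal elements where transcription factors gather and act on the promoter of a gene that may lie far away. In naive mESCs, dense groups of such elements lie near the genes of pluripotency factors. H2BK120ac sits on the H2B lysine that can otherwise carry ubiquitin and is also found at active promoters and enhancers.

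The sequence of most members was not analysed here, but 10 overlapped a promoter window of RefSeq (build GRCm38.p6, 250 bases before to 50 after a start) and so could be read in part. The 3 windows shown next lie whole inside members that between them showed both orders of H2BK120ac described further on. They are the window of 1190028D05Rik, an uncharacterised transcript, at chr8:52356361-52356660 on the plus strand, that of Mllt10, a cofactor of the H3K79 methyltransferase DOT1L, at chr2:18064335-18064634 on the plus strand, and that of 1700019D03Rik, an uncharacterised gene, at chr1:52953565-52953864 on the minus strand. Capitals mark matches to any of 10 factor motifs on either strand.
1190028D05Rik: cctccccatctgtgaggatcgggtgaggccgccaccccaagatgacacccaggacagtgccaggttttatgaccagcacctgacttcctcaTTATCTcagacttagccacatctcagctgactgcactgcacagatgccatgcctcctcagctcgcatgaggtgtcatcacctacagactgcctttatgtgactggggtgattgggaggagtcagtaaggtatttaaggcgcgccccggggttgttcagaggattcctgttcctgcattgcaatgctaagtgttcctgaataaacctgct
Mllt10: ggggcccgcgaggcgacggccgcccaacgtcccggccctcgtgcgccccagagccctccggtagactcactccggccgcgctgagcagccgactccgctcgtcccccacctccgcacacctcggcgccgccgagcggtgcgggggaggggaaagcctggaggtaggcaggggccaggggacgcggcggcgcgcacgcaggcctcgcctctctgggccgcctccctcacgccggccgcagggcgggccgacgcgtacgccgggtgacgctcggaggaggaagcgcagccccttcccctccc
1700019D03Rik: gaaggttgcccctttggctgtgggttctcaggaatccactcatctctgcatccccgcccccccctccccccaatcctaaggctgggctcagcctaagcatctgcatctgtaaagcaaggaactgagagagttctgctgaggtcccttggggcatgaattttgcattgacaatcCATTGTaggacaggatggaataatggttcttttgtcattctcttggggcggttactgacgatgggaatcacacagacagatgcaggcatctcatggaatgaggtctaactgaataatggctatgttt
The capitals in 1190028D05Rik are the GATA letters AGATAA read on the other strand, which 11.2% of 32851 RefSeq promoter windows of the same length hold. Those in 1700019D03Rik are the SOX letters ACAATG, also on the other strand, held by 12.6% of the windows. None of the 10 motifs matched in the Mllt10 window. The other 8 motifs searched were ATTTGCAT (OCT octamer), GGGCGTGG and GGGTGTGG (KLF), TCAAGGTCA (ESRRB), TGTTTAC (forkhead), TTCNNNGAA (STAT3), TGANTCA (AP-1) and CACGTG (E-box).

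The largest group of members lay beside the miR-290 cluster, whose microRNAs are abundant in mESCs and act on the cell cycle and differentiation. RefSeq held 17 mature sequences of this cluster. The 6 shown here fall into 2 families of 3, each with 1 shared seed (bases 2 to 8, in capitals), and lie on the plus strand between chr7:3218639-3218660 and chr7:3220815-3220837.
mmu-miR-291a-3p: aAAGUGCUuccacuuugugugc
mmu-miR-294-3p: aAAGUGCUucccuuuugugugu
mmu-miR-295-3p: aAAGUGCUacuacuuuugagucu
mmu-miR-290a-5p: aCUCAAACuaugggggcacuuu
mmu-miR-292a-5p: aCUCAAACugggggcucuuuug
mmu-miR-293-5p: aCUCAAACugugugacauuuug

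The files held 1 column per group, in which the authors had merged the replicates, so each value is a single merged coverage (CPM) with no spread and no test. Intervals on ratios are 95% Clopper-Pearson intervals on pile-ups rounded to whole fragments, and no replicate spread enters them. Coverage appears to be a mean over the region, since values under that of 1 fragment occur. A wide region can thus hold more fragments than its pile-up. The intervals are therefore approximate, and one that includes 1 does not place a difference within counting error. Reading the most frequent value of a column as 1 fragment gave 0.165 in EtOH and 0.207 in 4HT, and 0.412 to 0.445 in the H2BK120ac groups. These imply depths of 6.08 M and 4.82 M fragments for H3K27ac and of 2.25 M to 2.43 M for H2BK120ac. In H2BK120ac a pile-up of 5 fragments thus corresponds to a coverage of 2.06 to 2.23. Folds were taken on log2(value + 0.2) for H3K27ac and log2(value + 1) for H2BK120ac, which understates the change of low regions. A difference is counted where it reaches 2-fold on that scale.

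The members were wider and somewhat nearer to genes than other distal regions. Their median width was 452 bp (112 to 1629), against 233 bp over 101688 distal regions. The median distance to the nearest start of a protein-coding gene was 27.7 kb, with quartiles of 12.5 and 59.4 kb, against 41.5 kb. Inside the span of a protein-coding gene lay 316 members (37.7%). The label distal holds for the deposited windows, but 74 members (8.82%) were within 5 kb of a coding start in RefSeq. The members had 528 different nearest genes. Linked at gaps of up to 10 kb, 403 members stood alone, 228 formed 114 pairs and 208 lay in groups of 3 or more. Just inside the threshold, members near Lonrf1, Tfcp2l1, Ncoa7, Gsta3 and Spen had 4.0022 to 4.0047 in EtOH. Just outside, regions near Vps54, Uri1, Rai14, Hspd1 and Gtf2i had 3.9882 to 4.0, the last a rounded value under 4.

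Genes of naive pluripotency were frequent among the nearest genes. Of 18 naive pluripotency genes 8 (44.4%) were nearest to a member, namely Esrrb, Klf2, Klf4, Tfcp2l1, Zfp42, Prdm14, Tet2 and Zfp57. Over all 21492 protein-coding genes with a known start the share was 2.46%. Of 12 general pluripotency genes the 2 were Sox2 and Nanog. Of 12 formative and primed genes only Zic5 was nearest to a member, of 10 immediate early genes only Ier2, of 14 chromatin regulators Eed and Jarid2, and of 12 signalling feedback genes Lefty2 and Smad7. None of the lists for p53 targets (13 genes), primitive endoderm (8), trophectoderm (8), mesendoderm (6), neuroectoderm (6) and fibroblast feeders (8) had a gene nearest to a member. The naive list thus had the largest share. The general pluripotency list had 16.7%, the same as signalling feedback (16.7%) and near chromatin regulators (14.3%), so it does not mark the cell type here. At a share of 2.46% over all genes, lists of 6 to 13 genes are too short for their lack of a member to be read. The lists were chosen with earlier results of these data known.

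H3K27ac in 4HT, which did not enter the rule, was present at every member. The EtOH values ran from 4.00 to 48.5 with a median of 5.16, and the 4HT values from 1.81 to 63.1 with a median of 6.91. The 4HT value was above the EtOH value at 728 members (86.8%), beside 55.9% of the regions of the series whose 2 values differ and 72.7% of the 2276 distal regions with weaker H3K27ac in EtOH, from 2 to under 4. At least 2-fold higher in 4HT were 7 members (0.834%) and 2-fold lower was 1 (0.119%), beside 11.4% and 6.71% of all regions. EtOH chose the members, so nothing is read from these counts. The median log2 fold of the members was 0.345 and turned to -0.088 under quantile normalization, which shifted it by -0.43, so the direction depends on the scaling. Scaled to equal column medians it was 0.19. The counting interval of the ratio lay above 1 at 108 members (12.9%) and below 1 at 0, beside 0.444% and 0.00392% of all regions. EtOH chose the members, and most regions of the series have too little coverage for such an interval. The interval counts also rest on the values as deposited, so nothing is read from them.

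**Figure D1:**
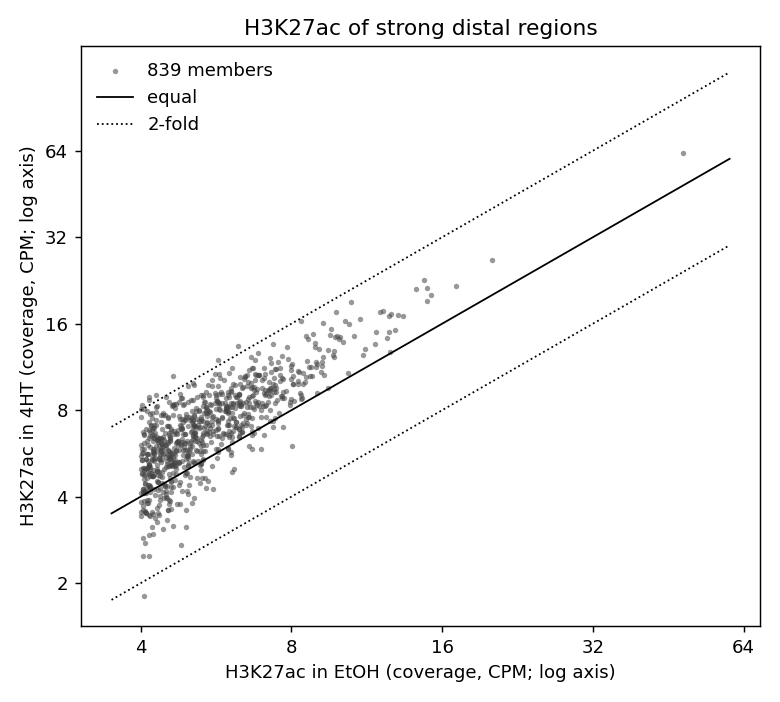
H3K27ac coverage (CPM) of the 839 members in EtOH (x axis) and 4HT (y axis), both on log axes, 1 point per region; the solid line marks equal values and the dotted lines 2-fold. Most points lie between the equal line and the upper 2-fold line, and 728 of 839 lie above equality in the values as deposited.

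The members with the strongest H3K27ac in EtOH differed in kind. The highest, an intergenic region of 134 bp at chr8:19784839-19784972, had 48.5 in EtOH and 63.1 in 4HT. Its H2BK120ac was also high throughout, with 18.5 (ED), 16.7 (ET), 22.2 (TD) and 26.7 (TT). It was the member with the highest ED and ET values. The next, at chr13:65991181-65991352, had 20.1 in EtOH and 26.8 in 4HT, and its H2BK120ac lay between 3.27 in TD and 9.01 in ET. IgG columns were not used, so the background at such short, very strong regions was not examined. Among members within named genes, the region inside Gpr107, a membrane protein gene, at chr2:31163476-31164364 had 14.9 in EtOH and 19.3 in 4HT. A region inside Gatad2a, which encodes a subunit of the NuRD complex, at chr8:69936149-69936909 had 14.2 and 21.2.

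The 5 largest H3K27ac ratios in favour of 4HT lay near Usp48, Kcnj3, Cobl, Eed and Zfp936. Inside Usp48, a deubiquitinase gene, chr4:137597231-137597404 had 10.6 in 4HT and 4.64 in EtOH, a ratio of 2.27 (1.42 to 3.78). Inside Eed, which encodes a core subunit of Polycomb repressive complex 2, chr7:89975509-89976030 had 9.02 and 4.29, a ratio of 2.10 (1.25 to 3.53). The same Eed region had H2BK120ac of 1.02 (ED), 2.52 (ET), 4.13 (TD) and 3.53 (TT). The lowest ratio was near Uri1, a prefoldin-like gene, where chr7:38030713-38030878 had 1.81 in 4HT and 4.06 in EtOH (ratio 0.446, 0.186 to 1.01). That interval and those of the next 4 regions, near Galnt7, Zfp428, Cobl and Il7, include 1. Both sets are extremes picked from all members, and their intervals hold for the values as deposited. Under quantile normalization 0 members were 2-fold higher in 4HT and 5 lower, so nothing is read from the contrast.

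H2BK120ac covered nearly all members, although the rule did not use it. In ED 838 members had coverage (99.9%, exact interval 99.3 to 100%) and in ET all 839 (lower bound 99.6%). In TD there were 825 (98.3%, 97.2 to 99.1%) and in TT 822 (98.0%, 96.8 to 98.8%). Over all distal regions the shares were 59.3% (ED), 59.3% (ET), 47.7% (TD) and 48.3% (TT). The sets most like the members were covered nearly as often, with 94.3% (TT) to 99.2% (ET) of the weaker distal regions and 99.4 to 100% of 178 strong regions at TSS windows. A pile-up of 5 fragments was reached at 54.5% of members (ED), 60.9% (ET), 47.3% (TD) and 41.4% (TT), but only 167 members reached it in all 4 groups.

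The medians of the members were lower in TD and TT than in ED and ET. Values in ED ran from 0 to 18.5 with a median of 2.40, and in ET from 0.420 to 16.7 with a median of 2.66. In TD they ran from 0 to 45.5 with a median of 1.94, and in TT from 0 to 37.4 with a median of 1.65. The quartile ranges of all 4 groups overlap. TD and TT thus combined lower medians with higher maxima. Values of 10 or more were held by 27 members in TD, 19 in TT, 10 in ET and 7 in ED.

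**Figure D2:**
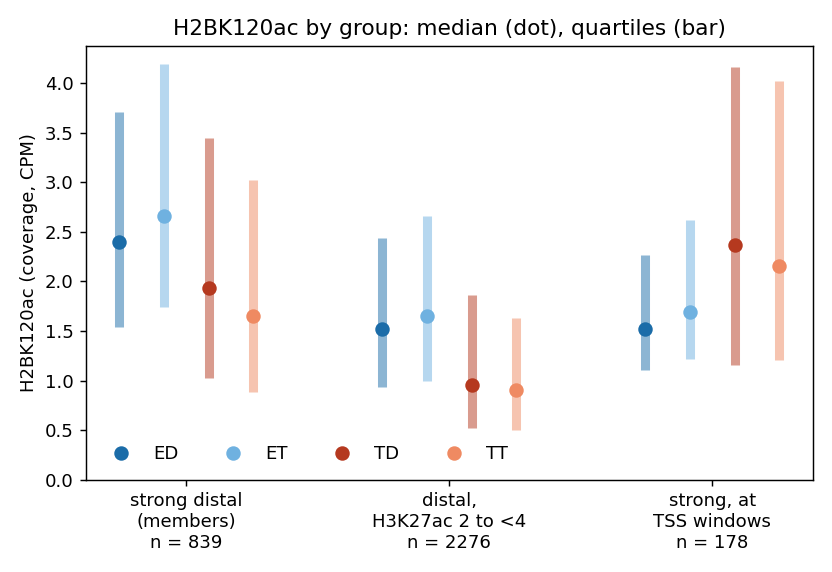
Median (dot) and quartiles (bar) of H2BK120ac coverage (CPM) in ED, ET, TD and TT for the 839 members, 2276 distal regions with H3K27ac of 2 to under 4 in EtOH and 178 strong regions at TSS windows. ED and ET have the higher medians in both distal sets, and TD and TT in the strong regions at TSS windows.

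At strong regions that overlap TSS windows TD and TT had the higher medians, while ET stayed above ED and TD above TT as at the members. Their medians were 1.52 (ED), 1.69 (ET), 2.37 (TD) and 2.15 (TT). The weaker distal regions had the order of the members at lower levels, with 1.52 (ED), 1.65 (ET), 0.957 (TD) and 0.902 (TT). Both TD and TT exceeded both ED and ET at 178 members (21.2%), and both ED and ET exceeded both TD and TT at 402 (47.9%), beside 12.5% and 23.4% of all regions. At the strong TSS regions these shares were 48.9% and 22.5%, and at the weaker distal regions 409 and 1175 of 2276 had these orders, the latter 51.6%, so their shares were near those of the members. With 1 merged column per group these differences between sets could not be tested.

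TD against ED showed differences in both directions among the members. At least 2-fold higher in TD were 88 members (10.5%) and 2-fold lower 165 (19.7%), beside 3.49% and 2.68% of all regions. Most regions of the series hold 1 fragment or none, where the pseudocount keeps 2-fold out of reach, so the weaker distal regions are the closer reference, with 9.67% higher and 20.4% lower. The members' shares were near those. At strong TSS regions 26.4% were higher and 6.74% lower. TD was above ED by any amount at 344 members (41.0%) and never equal to it. In the whole series 31922 of the 127646 regions had equal values, all without coverage in either group, and 39.7% of the others had TD above ED, close to the members. The members' median log2 fold was -0.21, with quartiles of -0.84 and 0.42, against 0.00 over all regions. Quantile normalization brought this median to -0.495 and gave 51 higher and 261 lower members. Among the 472 members with a mean of 5 fragments over the 4 groups, the median log2 fold was -0.04, with 76 higher (16.1%) and 94 lower (19.9%). TD enters that mean, so a member can pass through high TD alone, and nothing is read from the changed balance. Of the 559 weaker distal regions at that mean 151 were higher and 183 lower (32.7%), and of all 2782 regions at that mean 51.6% were higher and 15.7% lower. The counting interval of the ratio lay above 1 at 60 members (7.15%) and below 1 at 68 (8.1%), beside 1.26% and 0.37% of all regions. Low coverage keeps most regions from such an interval, and the weaker distal regions have no such count here. Nothing is thus read from the excess over all regions. The interval left out 1 at 59 of the 88 higher and 68 of the 165 lower members, so many 2-fold differences had an approximate interval that includes 1.

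TT against ET leaned further to lower values. At least 2-fold higher in TT were 51 members (6.08%) and 2-fold lower 209 (24.9%), beside 2.95% and 3.2% of all regions. The weaker distal regions had 7.38% and 24.5%, again close to the members, and the strong TSS regions 19.7% and 7.87%. TT was above ET by any amount at 255 members (30.4%), beside 28.9% of the weaker distal regions and 39.6% of all regions, in both cases of those with unequal values. The median log2 fold was -0.45, with quartiles of -0.998 and 0.161, and quantile normalization brought the median to -0.574. At a mean of 5 fragments over the 4 groups the median was -0.36, with 49 higher (10.4%) and 125 lower (26.5%) of 472 members. At that mean 22.0% of the weaker distal regions were higher and 36.9% lower, and 45.3% and 18.7% of all regions. TT and ET enter the mean, so a member can pass through the group where it is high, and nothing is read from these shares. Counting intervals lay above 1 at 37 members (4.41%) and below 1 at 105 (12.5%), beside 0.941% and 0.513% of all regions. Low coverage limits that comparison as in TD against ED, so nothing is read from it. The intervals left out 1 at 34 of the 51 higher and 104 of the 209 lower members.

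The comparisons TD against ED and TT against ET share no column. Higher in both were 43 members, 48.9% of those higher in TD and 84.3% of those higher in TT, where the weaker distal regions had 56.4% and 73.8% and all regions 50.6% and 59.9%. Lower in both were 111, 67.3% of those lower in TD and 53.1% of those lower in TT, where the weaker distal regions had 59.1% and 49.4% and all regions 35.2% and 29.5%. These overlaps were near those of the weaker distal regions. Opposite 2-fold directions were held by 0 members, 1 weaker distal region and 0 strong regions at TSS windows. Of all 127646 regions, 11 were higher in TD and lower in TT, and 7 were lower in TD and higher in TT. The lack of opposite directions is thus not particular to the members.

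**Figure D3:**
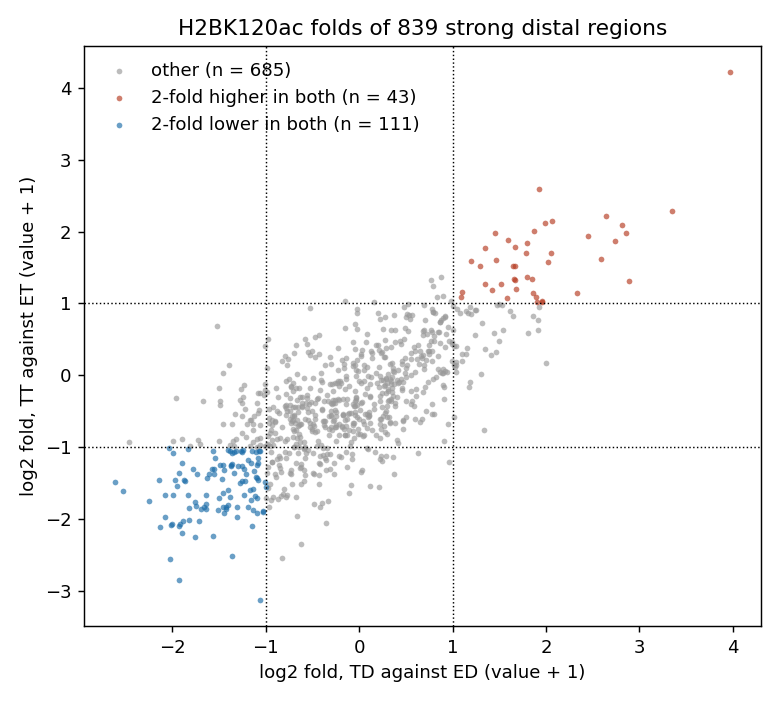
Log2 fold of H2BK120ac on (value + 1) in TD against ED (x axis) and TT against ET (y axis), 1 point per member; dotted lines mark 2-fold. The 43 members higher in both lie at upper right and the 111 lower in both at lower left, and the corners of opposite direction are empty.

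A change of the second letter gave small differences, in comparisons that share their columns with those above. ET against ED had 17 members at least 2-fold higher (2.03%) and 5 lower (0.596%), beside 0.91% and 0.57% of all regions. The weaker distal regions, the closer reference, had larger shares than the members, 3.34% and 1.54%. TT against TD had 10 higher (1.19%) and 21 lower (2.5%), beside 0.389% and 0.503% of all regions. The weaker distal regions had 1.01% and 1.93%, near the members. For ET against ED counting intervals lay above 1 at 4 members (0.477%) and below 1 at 1 (0.119%), beside 0.0282% and 0.00862% of all regions. For TT against TD they lay above 1 at 0 members and below 1 at 1 (0.119%), beside 0.0125% and 0.0345%. Low coverage limits these comparisons with all regions too. Across the 839 members, which share libraries and depth within a column, Spearman's rho was 0.73 between ED and ET and 0.81 between TD and TT. Between a group of the first kind and a group of the second it was 0.19 to 0.26. H3K27ac in EtOH had a rho of 0.23 to 0.28 with the 4 groups, over a range that the rule cuts at 4, so nothing is read from its size.

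Members far from genes had the higher H2BK120ac in ED and ET. Median ED coverage was 1.84 at the 74 members within 5 kb of a coding start and 3.88 at the 132 members 100 kb or more away, while TD had medians of 2.22 and 2.15. The weaker distal regions had the same pattern, with ED medians of 1.12 and 2.59 at those distances. In TD against ED, 11 of the nearest members were 2-fold higher (14.9%) and 6 lower (8.11%), and 6 of the farthest were higher (4.55%) and 36 lower (27.3%). The weaker distal regions had 16.1% higher and 7.8% lower at the near distance and 4.34% and 41.2% at the far one. In TT against ET the counts were 10 and 5 among the nearest members, and 2 and 48 (36.4%) among the farthest, beside 17.4% and 14.2%, and 3.13% and 44.6%, of the weaker distal regions. The same shift with distance was seen over all distal regions, where in TD against ED 4.41% were higher and 2.09% lower at the near distance and 1.78% and 4.19% at the far one. It is thus a pattern of distal regions in this series and not of the members alone. Under quantile normalization the nearest members were balanced in TT against ET, with 9 higher and 9 lower, and had 9 higher and 7 lower in TD against ED. Among the farthest, lower members prevailed under that and under equal medians in both comparisons.

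**Figure D4:**
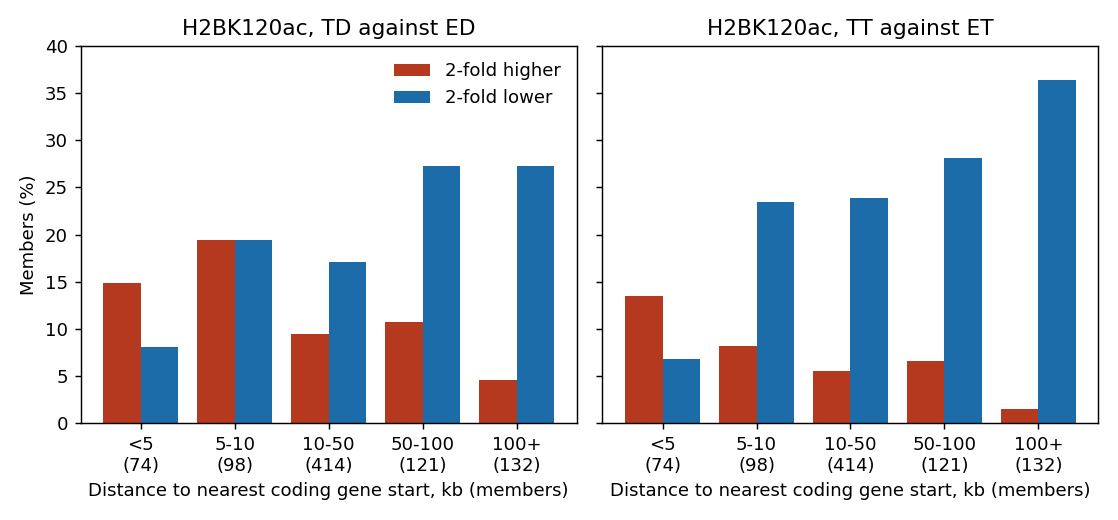
Share of members (%) at least 2-fold higher or lower in H2BK120ac, TD against ED at left and TT against ET at right, by distance to the nearest coding gene start in kb, with the number of members in parentheses. Lower members make up 8.11% at under 5 kb and 27.3% at 100 kb or more in TD against ED, and 6.76% and 36.4% in TT against ET.

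Lower members made up a smaller share of linked groups of 3 or more than of those alone, as at the weaker distal regions. Among the 403 members that stood alone, 48 were higher (11.9%) and 99 lower (24.6%) in TD, and among the 208 in groups of 3 or more 22 were higher (10.6%) and 22 lower (10.6%). Linked in the same way, the weaker distal regions had 9.59% higher and 22.4% lower alone and 9.63% and 12.3% in groups of 3 or more. The 81 members with H3K27ac of 8 or more had medians of 3.30 in ED and 3.27 in TD, against 2.06 and 1.60 at the 376 members from 4 to 5.

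The 8 linked members beside the miR-290 cluster spanned 20.8 kb at chr7:3193083-3213887, the last ending 4739 bp before the Mir290a hairpin. Their H3K27ac was 4.14 to 14.7 in EtOH and 4.73 to 22.8 in 4HT, higher in 4HT at all 8 as deposited. H2BK120ac ranged from 0.879 to 4.56 in ED and from 0.956 to 5.24 in ET. It ranged from 0.412 to 9.75 in TD and from 0 to 8.98 in TT. TD exceeded ED at 6 of the 8 and TT exceeded ET at 7, also under both other scalings. The strongest of them, at chr7:3201151-3201749, had 1.96 (ED), 3.28 (ET), 8.05 (TD) and 6.98 (TT), and its TD to ED ratio of 4.10 had an interval of 1.55 to 18.6. Its TT to ET ratio of 2.13 had an interval of 0.891 to 6.45, which includes 1.

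Other large groups lay near Adrb3 (6 members), Kank4 (5), A930007A09Rik (5) and Cdh1 (5). The Cdh1 group, inside the gene of the adhesion protein E-cadherin at chr8:106608439-106620014, had low H2BK120ac, with medians of 1.07 (ED), 1.27 (ET), 1.24 (TD) and 1.39 (TT). These medians are all below the 5-fragment level. The Adrb3 group, at chr8:27234514-27243395 near a beta-adrenergic receptor gene, had medians of 1.85, 2.34, 2.24 and 2.84 in the same order. The Kank4 group had 4.14, 4.23, 3.34 and 1.81, and that near A930007A09Rik 1.63, 2.65, 1.20 and 1.38. The groups thus differed in the order of their medians, but these have no interval and rest on few regions, so nothing is read from the orders.

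The 19 members nearest to naive pluripotency genes gave few 2-fold differences. In TD against ED 2 of the 19 were 2-fold higher and 3 lower, and in TT against ET 0 were higher and 4 lower. These counts are near the shares of 10.5% and 19.7%, and of 6.08% and 24.9%, over all members. H3K27ac was above EtOH in 4HT at 18. The 4 members 51735 to 56626 bp from the start of Klf4, a Krüppel-like reprogramming factor, had 1.55 to 3.04 in ED and 1.45 to 3.03 in ET. They had 3.48 to 6.36 in TD and 2.89 to 4.47 in TT. TD exceeded ED at all 4 Klf4 members and TT exceeded ET at all 4, or at 3 under quantile normalization. The strongest Klf4 member, at chr4:55477297-55478234, had a TD to ED ratio of 2.09 (0.761 to 5.75). Its TT to ET ratio was 1.48 (0.518 to 4.45), and both intervals include 1. Inside Esrrb, an orphan nuclear receptor gene of the naive network, all 3 members had TD above ED and TT above ET under every scaling. The strongest, at chr12:86501563-86502238, had 2.94 (ED), 1.92 (ET), 8.34 (TD) and 4.46 (TT), a TD to ED ratio of 2.83 (1.07 to 7.40). Its TT to ET ratio of 2.33 had an interval of 0.759 to 11.0, which includes 1.

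Klf2 had the opposite order, and Tet2 had it in TD against ED only. The 3 members 14501 to 16369 bp from the start of Klf2, another Krüppel-like factor, had 1.41 to 4.52 (ED), 2.53 to 2.98 (ET), 0 to 1.44 (TD) and 0.556 to 0.855 (TT). All 3 were lower in TD than in ED and in TT than in ET under every scaling. The strongest Klf2 member, at chr8:72333563-72334150, had ratios of 0.469 (0.0662 to 1.74) for TD to ED and 0.186 (0.00295 to 1.035) for TT to ET. Both intervals include 1. At chr8:72335431-72335542 TD had no coverage, and the TD to ED interval of 0 to 0.413 left out 1. The TT to ET interval there, 0.0306 to 1.74, included it. Inside Tet2, which encodes a 5-methylcytosine dioxygenase, the 3 members had 2.37 to 2.93 in ED and 0.645 to 1.96 in TD, lower in TD at all 3, but TT exceeded ET at 1 of them under every scaling. At chr3:133524431-133525456 the TD to ED ratio was 0.220 with an interval of 0.0268 to 1.39, so counting error alone spans equality there. The 3 members inside Tfcp2l1, a CP2 family factor, reached at most 2.23 in any group, with 0.908 to 1.27 in ED and 0.347 to 1.65 in TD.

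**Figure D5:**
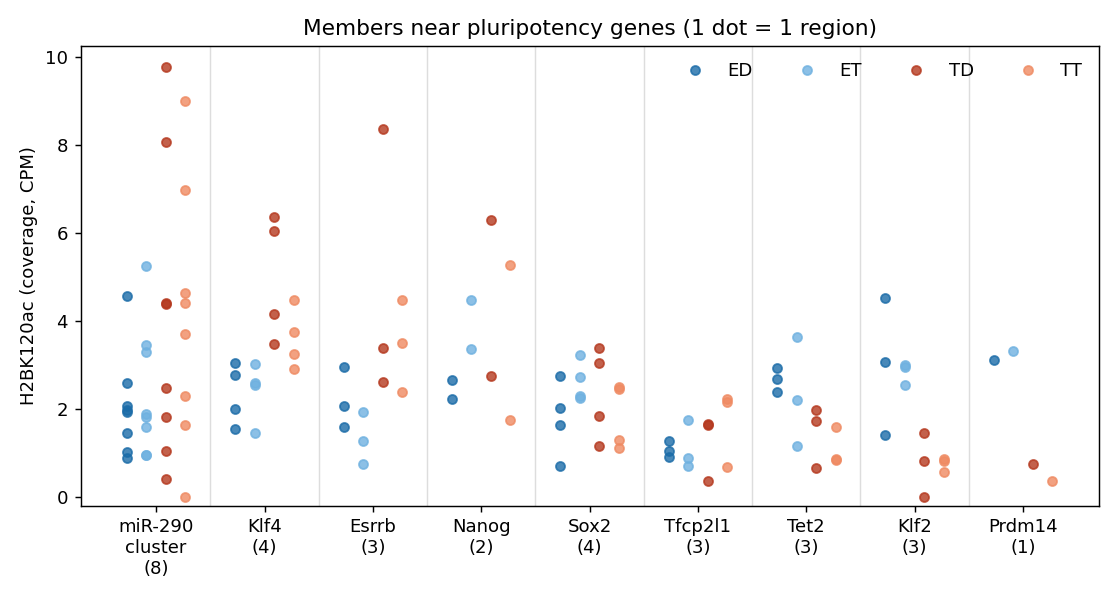
H2BK120ac coverage (CPM) of single members in ED, ET, TD and TT at 9 loci, with the number of members in parentheses; each dot is 1 region. TD dots lie above all ED and ET dots at Klf4, TD and TT dots lie below all ET dots at Klf2, and both lie below ED and ET at Prdm14.

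At Sox2 and Nanog no member reached 2-fold in TD against ED or TT against ET. The 4 members 106652 to 111125 bp from Sox2, at the distance of the known Sox2 control region, had 0.707 to 2.75 (ED), 2.24 to 3.22 (ET), 1.15 to 3.39 (TD) and 1.10 to 2.48 (TT). TD exceeded ED at all 4, but at 2 under quantile normalization, and TT exceeded ET at 0. The stronger of 2 members near Nanog, the homeodomain factor, at chr6:122702292-122703236, had 2.66 (ED), 4.47 (ET), 6.28 (TD) and 5.28 (TT). Its TD to ED ratio of 2.36 had an interval of 0.848 to 7.27, which includes 1. At the 4 members nearest to Smad7, an inhibitor of TGF-beta signalling, all inside the neighbouring gene Dym, TD exceeded ED at 2 and TT exceeded ET at 1. Of the Smad7 members 1 was 2-fold higher in TD than in ED (ratio 2.90, 0.592 to 14.4) and 1 was 2-fold lower (0.139, 0.00293 to 1.03), and both intervals include 1.

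The highest H2BK120ac values were held by TD and TT. After the chromosome 8 region and one inside Ranbp3, they lay at Mdm4, Ncoa1, Ppp6r3, Gm40853, LOC115488029, Zc3h11a, Pgpep1 and Chd9. Inside Mdm4, which encodes an inhibitor of p53, chr1:133020182-133020420 had 1.93 (ED), 4.41 (ET), 28.8 (TD) and 25.4 (TT). The ratios were 14.9 (6.05 to 61.1) for TD against ED and 5.75 (2.89 to 12.4) for TT against ET, while H3K27ac was 5.16 in EtOH and 5.81 in 4HT. Inside Ncoa1, the gene of a nuclear receptor coactivator, chr12:4356915-4357429 had 7.33 (ED), 8.62 (ET), 22.2 (TD) and 17.9 (TT). Inside Ppp6r3, a protein phosphatase 6 subunit gene, chr19:3533309-3533535 had 5.06, 4.94, 24.3 and 18.4 in the same order. Inside Pgpep1, a peptidase gene, chr8:70649199-70649690 had 3.15, 3.96, 21.6 and 18.04. The regions inside Mdm4, Ncoa1, Ppp6r3 and Pgpep1 had H3K27ac in EtOH of 4.21 to 6.70, beside quartiles of 4.48 and 6.39 over the members. The region near Gm40853 had 10.2.

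Further large differences in favour of TD or TT lay near Mtcl1 and Schip1. Of the 4 members near Mtcl1, a microtubule crosslinking gene, the one at chr17:66471862-66472076 had 1.26 (ED), 2.66 (ET), 15.7 (TD) and 8.11 (TT). Near Schip1, chr3:68492516-68493444 had 2.67 (ED), 1.27 (ET), 13.0 (TD) and 12.7 (TT). A group of 4 members 4835 to 7794 bp from Mcl1, an antiapoptotic BCL2 family gene, was chosen after its values were seen. It had 0.712 to 1.45 (ED), 0.976 to 2.25 (ET), 3.31 to 6.44 (TD) and 5.28 to 6.82 (TT), so that its TD and TT values all lay above its ED and ET values.

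The largest differences in favour of ED and ET lay 16369 to 1479358 bp from the nearest coding start, at 10 members. Near Smim38, chr7:145139694-145139907 had 4.79 in ED and 2.05 in ET and no coverage in TD or TT. Inside Csmd1, chr8:15984075-15984858 had 6.17 (ED), 4.99 (ET), 0.502 (TD) and 0.777 (TT), a TD to ED ratio of 0.0815 (0.00156 to 0.434). Inside Ctnna3, an alpha-catenin gene, chr10:64744150-64744624 had 6.83, 5.11, 0.775 and 1.22. In TT against ET, the region near Gm29667 at chr1:101756433-101757502 had 10.8 in ET and 0.348 in TT, with 5.36 in ED and 2.03 in TD. Near Slc38a11, an amino acid transporter gene, chr2:65436960-65437331 had 10.1 in ET, 0.540 in TT, 4.38 in ED and 0.412 in TD. Near Kcnj3, a potassium channel gene, chr2:55222857-55223051 had 14.7 in ET, 1.75 in TT, 7.46 in ED and 2.28 in TD. That region was also among those with the largest H3K27ac ratio, with 13.4 in 4HT and 6.26 in EtOH (2.14, 1.42 to 3.31).

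The members shown by sequence gave both orders, with ED and ET highest at the first and the third and TD and TT highest at Mllt10. The 1700019D03Rik member lies 0 bp from a coding start in RefSeq, and the Mllt10 member holds a whole coding promoter window. These members are thus distal by the deposited windows only. The one holding the 1190028D05Rik window, chr8:52356053-52356809, lay 1154874 bp from the nearest coding start and had 11.0 (ED), 11.8 (ET), 8.44 (TD) and 4.99 (TT). The one with the Mllt10 window, chr2:18063832-18065299, had 1.21, 1.51, 4.51 and 3.14, and the one with the 1700019D03Rik window, chr1:52952600-52954077, had 2.79, 2.78, 2.15 and 1.45. Of their TD to ED and TT to ET ratios, only TT to ET at the 1190028D05Rik window had a counting interval without 1 (0.424, 0.198 to 0.882).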

How the data were processed

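CUT&Tag values of 16 of the 28 samples were used, leaving out the 12 from cells sorted by phase. The authors deposited coverage signal, called CPM in the table names, over regions of the mm10 build, with the replicates merged into 1 column per group. The submitters' processing notes also name featureCounts and DESeq2 for H3K27ac, with no role. For the aligner and coverage tool nothing is given in the sources used here. A region without coverage holds no number and was counted as 0. A further 16 value columns in 2 tables match no sample and were not used; the TSS windows served as coordinates only.

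Computed from these were log2 folds (pseudocount 0.2 for H3K27ac and 1 for H2BK120ac), a size rule of 2-fold, which counting error alone can pass at low pile-ups, and counting intervals, with Python 3.11.15, numpy 2.4.6, pandas 2.3.3 and scipy 1.17.1. The planned limma tests need separate replicates and were not possible, so no p-value, SD or n is attached to a value. Nearest genes are protein-coding genes of RefSeq GRCm38.p6, with starts from the promoter table for 17492 genes and from the deposited windows for 4000, of 21887.

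The named regions were, by rule, the 10 members highest in H3K27ac EtOH and in mean H2BK120ac, the 5 largest folds in each direction (for H2BK120ac among members with a mean of 5 fragments), the strongest member at each listed gene, those next to the threshold and the 5 largest linked groups; some of them are given only by gene, and 1 is not reported here. All members at listed loci are also described. Further named members were picked with their values in view. The members and the 12 gene lists (126 genes) were chosen with earlier results of these data known. Alternatives changed the threshold, the distance to genes, pseudocounts, scaling and a filter on low values.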

Additional observations from a re-analysis of the deposited data

How the results depend on the processing

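Of the alternative values computed for counts, shares and medians, 40 stayed within 1.5 times (counts) or within the counting or order interval of the main value, 41 moved and 1 turned direction. The median H3K27ac log2 fold of 4HT against EtOH turned to -0.088 under quantile normalization; it was 0.31 with a pseudocount of 1 and 0.19 with equal medians. The 7 members higher became 1 with a pseudocount of 1 and 0 under quantile normalization and equal medians, and the 1 lower became 0 with a pseudocount of 1 and 5 under quantile normalization. A threshold of 3 gave 1524 members with H2BK120ac medians in ED, ET, TD and TT of 2.18, 2.34, 1.54 and 1.33. A threshold of 5 gave 463 members with 2.83, 3.08, 2.28 and 1.91 in that order, with coverage in 100% in ED and 98.9% in TT. At least 5 kb from coding starts ED coverage was 100%. The order of these medians (ET, ED, TD, TT) was the same at each threshold.

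For TD against ED, quantile normalization gave 51 higher and 261 lower, a pseudocount of 2 gave 83 lower and a mean of 5 fragments 76 higher and 94 lower among 472 members, with a median log2 fold of -0.041 in place of -0.211. For TT against ET, a pseudocount of 0.4 gave 83 higher, a pseudocount of 2 gave 114 lower and a mean of 5 fragments 125 lower. ET against ED had 46 higher and 22 lower with a pseudocount of 0.4, 1 and 1 with 2, 27 and 27 under quantile normalization, 11 higher with equal medians and 3 lower with a mean of 5 fragments. TT against TD had 35 higher and 61 lower with a pseudocount of 0.4, 1 and 0 with 2, and 11 lower under quantile normalization and 13 with a mean of 5 fragments. Higher pseudocounts and the filter leave fewer regions able to pass, and the mean used by the filter includes the compared groups themselves. For the scalings the cause was not tested.

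No paired analysis was possible because the merged columns carry no replicate number, and leaving out single replicates could not be run for the same reason. Depth limits H2BK120ac most, since 145 members reached 5 fragments in none of the 4 groups, and ratios there have wide counting intervals. IgG background and repeat content were not examined.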

Other observations

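The members were spread over the chromosomes much like distal regions in general, with some exceptions. Chromosome 8 held 79 members (9.42%, against 7.34% of distal regions) and chromosome 1 held 78 (9.3%, against 7.9%). Chromosome 16 held 43 (5.13%, against 3.36%), and the X chromosome held 3 (0.358%, against 2.21%). Mean H3K27ac over all distal regions in EtOH was 0.312 on X and 0.401 on chromosome 8. No test was made of these shares. Besides the miR-290 cluster, microRNA hairpins within 10 kb of a member included Mir296 (5267 bp) and Mir298 (5724 bp), which lie together on chromosome 2, and Mir8110 (8747 bp) on chromosome 8.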
